A study of Mus musculus with 6 samples.

Results

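The nuclear genes of respiratory complexes II to V were examined in astrocytes isolated from the mouse brain after quinpirole, an agonist of the dopamine receptor DRD2. The members were the protein-coding genes whose symbol starts with Uqcr, with Atp5 or with Cox and a digit, together with the 4 Sdh genes, Cyc1 and Cycs. This rule uses names and no measured value, and it gave 56 of the 17193 genes listed for each library. Of these, 4 encode complex II, 9 complex III, 1 cytochrome c, 16 subunits of complex IV, 9 assembly factors of complex IV and 17 ATP synthase, which is complex V. A total of 54 members had a mean of at least 1 FPKM (sequenced fragments divided by transcript length and by the depth of the library) over the 6 libraries and were tested. The other 2, Cox6a2 and Cox8c, are described by their values.

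The mice were wild type, of the strain C57BL/6 and 3 months of age, and had received either mock treatment or quinpirole, with 3 libraries per group. No transgene or deletion was carried by either group. The cells were separated from brain tissue with microbeads against the astrocyte antigen ACSA-2, and polyadenylated RNA of whole cells was sequenced. Dose and duration for these mice were not given in the labels, and neither was the number of mice behind a library, so the p-values measure only the spread between these libraries, which may be technical. In bulk samples such as these, fewer cells of a type and less RNA per cell cannot be told apart.

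The respiratory chain passes electrons from fuel molecules to oxygen across the inner mitochondrial membrane. Succinate dehydrogenase (complex II) and complex I feed electrons to ubiquinone, the cytochrome bc1 complex (complex III) hands them to cytochrome c, and cytochrome c oxidase (complex IV) delivers them to oxygen. Complexes I, III and IV pump protons, complex II does not, and ATP synthase lets the protons flow back through a rotating ring to make ATP. Complex II is encoded in the nucleus alone, whereas complexes III, IV and V combine nuclear subunits with a few made from mitochondrial DNA. Astrocytes are known for active glycolysis, but they also respire.

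The promoters of many respiratory genes are known to carry sites for NRF-1, for ETS factors such as GABP, for YY1 or for the oestrogen-related receptors (ERR). RefSeq promoter windows of GRCm38.p6, each with 250 bases before and 50 bases after a start site, were matched to 40 of the 56 members. The stretches that follow are the 200 bases before the start, 5′ to 3′, for members of each kind that the results name, and capitals mark motif matches. Cycs (chr6:50566570-50566769, minus strand), Cox7a2 (chr9:79759854-79760053, minus strand) and Atp5c1 (chr2:10080511-10080710, minus strand) are shown as members with a low p in their complex. Cox6a1 (chr5:115348959-115349158, minus strand) holds NRF-1 and ETS motifs, Uqcr11 (chr10:80406822-80407021, minus strand) an ETS motif and Atp5g3 (chr2:73911327-73911526, minus strand) an ERR motif.
Cycs: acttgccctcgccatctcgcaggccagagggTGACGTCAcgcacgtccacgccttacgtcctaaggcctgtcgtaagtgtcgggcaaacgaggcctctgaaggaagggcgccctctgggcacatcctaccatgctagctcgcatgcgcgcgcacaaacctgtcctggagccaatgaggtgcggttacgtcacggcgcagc
Cox7a2: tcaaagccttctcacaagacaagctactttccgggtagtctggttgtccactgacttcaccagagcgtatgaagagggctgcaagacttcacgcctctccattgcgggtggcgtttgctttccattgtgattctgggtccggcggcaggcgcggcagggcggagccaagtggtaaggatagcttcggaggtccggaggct
Atp5c1: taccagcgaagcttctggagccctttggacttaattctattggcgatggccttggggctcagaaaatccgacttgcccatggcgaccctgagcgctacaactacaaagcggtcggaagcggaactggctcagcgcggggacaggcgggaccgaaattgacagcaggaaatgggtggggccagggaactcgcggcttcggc
Cox6a1: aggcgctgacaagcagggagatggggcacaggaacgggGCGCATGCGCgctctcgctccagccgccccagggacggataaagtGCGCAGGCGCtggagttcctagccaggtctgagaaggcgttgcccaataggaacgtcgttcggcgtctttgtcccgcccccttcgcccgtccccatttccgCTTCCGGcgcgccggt
Uqcr11: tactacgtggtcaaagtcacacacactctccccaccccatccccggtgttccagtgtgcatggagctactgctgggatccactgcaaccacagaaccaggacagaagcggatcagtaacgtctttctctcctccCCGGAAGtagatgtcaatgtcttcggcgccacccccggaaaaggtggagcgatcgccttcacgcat
Atp5g3: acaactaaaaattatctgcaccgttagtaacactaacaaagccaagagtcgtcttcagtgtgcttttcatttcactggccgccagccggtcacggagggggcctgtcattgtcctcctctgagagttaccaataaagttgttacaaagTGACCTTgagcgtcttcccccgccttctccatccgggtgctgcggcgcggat
In Cycs the capitals mark a cyclic AMP response element 169 bases before the start, and the printed stretches of Cox7a2 and Atp5c1 hold no exact match.

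A total of 6 motifs were searched on both strands of the whole windows. The ETS motif (CCGGAAG) was present in 16 of the 40 members (40%), beside 18.7% of the 9607 tested genes with a window and 9.12% of all 27025 genes with a window. NRF-1 (GCGC, 2 bases of any kind, GCGC) was found in 9 members (22.5%; 14.2% of tested genes and 6.43% of all), and ERR (AAGGTCA) in 5 members (12.5%; 2.88% and 4.66%), of which 4 belong to complex V. YY1 (AANATGGCG) was found in 3 members (7.5%; 5.48% and 2.51%) and the cyclic AMP response element (TGACGTCA) in 2, Cycs and Uqcrfs1 (5%; 3.28% and 1.88%). The antioxidant response element of Nrf2 (TGACNNNGC), a factor unrelated to NRF-1, was found in 4 members (10%; 14.8% and 12.5%). Only 8 of the 40 members with a window passed the test of expression described next, and none of these 8 held it. Other members that passed had no window, so these few windows say little about the antioxidant response element. This element and the cyclic AMP element both begin with TGAC and differ after it, so no site matches both. Among the 8 windows of members that passed the test, 1 held the ETS motif, compared with 15 of the 32 other windows. The median GC content of the windows was 57.8% in members, 61.3% in tested genes and 52.7% in all genes. A match describes letters and not a bound site, and an exact search misses sites that depart from the letters used. The lack of an NRF-1 match in Cycs is therefore no evidence that such a site is absent.

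The libraries were estimated from the steps of their lowest values to hold between 23300000 and 28100000 fragments. In the whole table of 12255 tested genes, 704 (5.74%) were higher and 635 (5.18%) were lower after quinpirole at an adjusted p under 0.05 (limma on log2(FPKM + 1), Benjamini-Hochberg adjustment). The astrocyte markers Gfap (482 to 560 FPKM), Slc1a3 (186 to 215), Aldh1l1 (165 to 182) and Aqp4 (57.6 to 65.4) were well expressed. Slc1a2, the main glutamate transporter of mature astrocytes, was at only 5.15 to 8.55 FPKM, and the marker S100b at 5.01 to 6.18 FPKM. Drd2 itself lay between 0 and 0.104 FPKM. Among the mural markers, Acta2 of smooth muscle reached 2518 to 2881 FPKM, Pdgfrb 20.7 to 27.2 FPKM, and Rgs5 and Vtn stayed below 1 FPKM. Of the ependymal markers, Foxj1 was at 118 to 130 FPKM and Rsph1 at 14.2 to 16.8 FPKM, whereas Tmem212 and Ccdc153 did not exceed 1.35 FPKM. The neuronal markers Stmn2 (53.3 to 67.2 FPKM) and Tubb3 (16.6 to 22.3) and the oligodendrocyte marker Cnp (151 to 171) were present, but Snap25 and Mog were below 0.1 FPKM in every library. Such high Acta2 and Foxj1 beside low Slc1a2 are unusual for astrocytes taken from the adult brain. The paper reports a check of astrocyte purity by flow cytometry after isolation, and the purity of the libraries was not tested here.

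After quinpirole, the members as a group lay slightly higher. A total of 14 of the 54 tested members (25.9%) rose and 0 fell, beside 5.74% and 5.18% of all tested genes. At an unadjusted p under 0.05 in limma there were 35 members, all of them with a positive change. Of all tested genes, 17.3% had such a p and a positive change and 31.3% such a p in either direction. The changes were small, from 13.5% to 29.1% of the mean FPKM in the 14, and 0 rose by 1.5 times or more (0.0571% of tested genes did). The log2 fold change was above 0 in 53 of the 54, beside 53.8% of all tested genes, and its median was 0.17 in the members and 0.02 in all tested genes. In 37 of the 54 (68.5%) every quinpirole library lay above every mock library, beside 20.0% of all tested genes, and in 0 did every quinpirole library lie below (16.9% of all tested genes). Summed over the 56 members, the level was 6558, 6411 and 6924 FPKM in the mock libraries and 7351, 7875 and 7278 FPKM in the quinpirole libraries, a difference of 13.1%. The sum over all tested genes differed by 5.86% in the same direction, and with the libraries set to a common sum 7 members rose (1.80% of tested genes rose) and 47 lay above 0, with a median of 0.09 (all tested genes, −0.06).

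**Figure D1:**
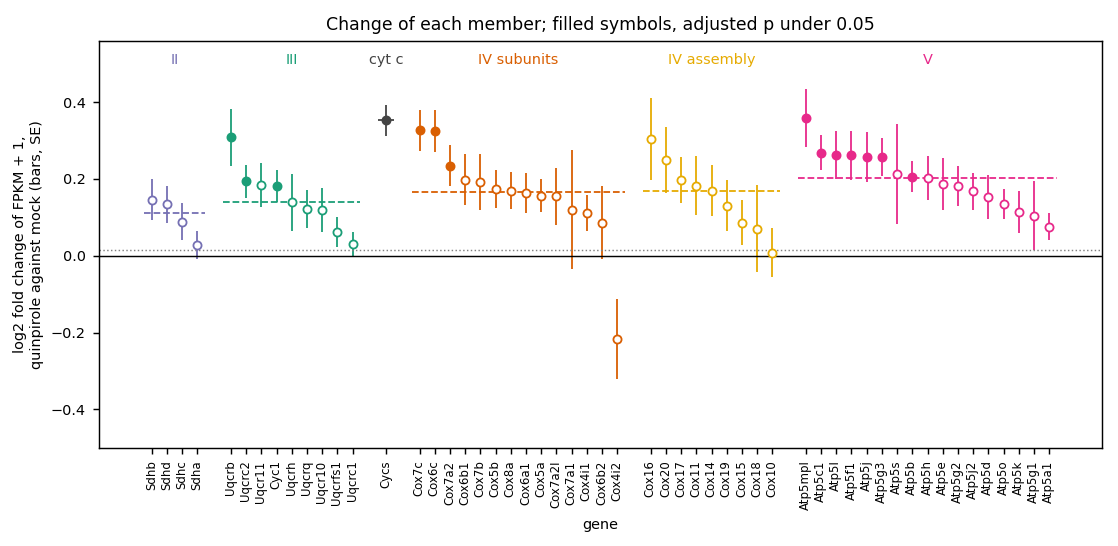
Log2 fold change of FPKM + 1, quinpirole against mock (vertical axis), for each of the 54 tested members (horizontal axis), with bars for the standard error and dashed lines for the median of each complex. The 14 filled symbols passed an adjusted p of 0.05, and Cox4i2 is the member below 0; the dotted grey line marks the median of all tested genes at 0.02.

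On the values as deposited, complex II had the smallest median change of the complexes. Its 4 genes were listed at 35.8 to 118 FPKM on average, and 0 of 4 passed the test, with 2 at an unadjusted p under 0.05 in limma, which 17.3% of all tested genes reached in this direction. Sdha, the flavoprotein that oxidizes succinate and the most abundant of the 4, was at 113, 118 and 118 FPKM in the mock libraries and 119, 121 and 116 FPKM in the quinpirole libraries. The groups overlapped, with a log2 fold change of 0.03 ± 0.04 (SE). Sdhb (chromosome 4, 140961203 to 140979193, GRCm38), the iron-sulfur subunit, was at 70.7, 70.6 and 76.2 FPKM in mock and 77.3, 85.7 and 78.1 FPKM in quinpirole. Here the groups did not overlap, but the change of 10.9% did not pass (log2 fold change 0.15, adjusted p = 0.11). The membrane anchor Sdhd differed by 9.94% without overlap (adjusted p = 0.11), and the other anchor, Sdhc, by 6.61% with overlap (adjusted p = 0.25).

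In complex III, 3 of 9 genes rose (5.74% of all tested genes did), among them 1 of the 2 large core proteins. Uqcrc2 (chromosome 7, 120635176 to 120659524), a core protein, was at 58.0, 58.4 and 61.5 FPKM in mock and 65.5, 70.4 and 68.0 FPKM in quinpirole (log2 fold change 0.19, adjusted p = 0.036). Every quinpirole library was above every mock library, by a narrow gap of a few FPKM. Its partner Uqcrc1 was at 123.8, 120.0 and 122.6 FPKM in mock and 124.3, 125.0 and 124.8 FPKM in quinpirole. These groups did not overlap either, but the difference was 2.08% and did not pass (adjusted p = 0.55). Cyc1, the cytochrome c1 that passes electrons to cytochrome c, rose by 13.5%, from 95.6 ± 3.97 to 108 ± 2.66 FPKM (SD, n = 3; adjusted p = 0.041). The other redox subunit of the nucleus, the Rieske protein Uqcrfs1, differed by 4.46% and its groups overlapped (adjusted p = 0.32). Among the small subunits, Uqcrb rose by 24.2%, from 51.7, 53.9 and 60.8 to 69.0, 74.0 and 63.7 FPKM (adjusted p = 0.044). Uqcr11, the most abundant of the complex, was at 170, 156 and 176 FPKM in mock and 179, 198 and 194 FPKM in quinpirole, without overlap and without passing (adjusted p = 0.076). Uqcr10, Uqcrh and Uqcrq differed by 8.53% to 10.6% and did not pass.

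Cytochrome c, the mobile carrier between complexes III and IV, had the smallest p of all members. Cycs (chromosome 6, 50562563 to 50566538) was at 21.4, 20.4 and 20.9 FPKM in the mock libraries and 27.4, 27.2 and 26.3 FPKM in the quinpirole libraries. The 2 groups were far apart compared with their spread (SD 0.504 and 0.561 FPKM, n = 3). It rose by 29.1% (log2 fold change 0.35 ± 0.04 SE, adjusted p = 0.021). Of 14 alternatives that kept all libraries, Cycs passed in 12, more than any other member that rose, and under the omission of single libraries in 2 of 6. Its level was among the lower ones of the members.

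Of the 14 tested subunits of cytochrome c oxidase, 3 rose, beside 5.74% of all tested genes. Cox7c (chromosome 13, 86044816 to 86046904) was at 134, 122 and 137 FPKM in mock and 166, 170 and 157 FPKM in quinpirole (log2 fold change 0.33 ± 0.05, adjusted p = 0.025). Cox6c (chromosome 15, 35925886 to 35938246) was at 169.8, 164 and 180 FPKM in mock and 201, 221 and 223 FPKM in quinpirole (log2 fold change 0.32 ± 0.05, adjusted p = 0.025). For both, the lowest quinpirole library was above the highest mock library by more than the SD of either group. Cox7a2 rose by 17.9%, from 66.1 ± 3.56 to 77.9 ± 3.82 FPKM (adjusted p = 0.039). Cox5a came next and did not pass (11.6%, adjusted p = 0.054), and Cox8a, Cox6a1 and Cox5b differed by 12.1% to 13.0% without overlap at adjusted p of 0.064 to 0.077. The most abundant member of all, Cox6a1, was at 544, 530.4 and 575 FPKM in mock and 591, 652 and 605 FPKM in quinpirole.

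Several subunits of complex IV exist as pairs of isoforms, 1 used widely and 1 known from muscle, lung or testis. The widely used forms dominated in these libraries. Cox4i2, known from lung and from oxygen-sensing cells, made 0.424% ± 0.056 of the summed Cox4i FPKM in mock and 0.314% ± 0.051 in quinpirole (SD, n = 3). It was the one tested member with a negative log2 fold change, at 2.37, 1.87 and 2.55 FPKM in mock and 2.07, 1.69 and 1.65 FPKM in quinpirole. These groups overlapped (log2 fold change −0.22 ± 0.10, adjusted p = 0.20), whereas its partner Cox4i1 was at 531 ± 14.6 and 574 ± 30.5 FPKM (adjusted p = 0.16). The muscle form Cox7a1 made 12.1% of the Cox7a FPKM in mock and 11.4% in quinpirole, and Cox6b2, known from testis, 12% and 11.2% of the Cox6b FPKM. Cox6b2 reached 28.7 to 37.4 FPKM in the 6 libraries. The muscle form Cox6a2 lay between 0 and 0.308 FPKM, about 0 to 5 fragments, and Cox8c was above 0 in 1 of 6 libraries, at 0.0757 FPKM. The supercomplex factor Cox7a2l differed by 11.8% (adjusted p = 0.20) and Cox7b by 14.9% with overlap (adjusted p = 0.12).

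None of the 9 assembly factors of complex IV passed the test (5.74% of all tested genes were higher), and 5 had an unadjusted p under 0.05 in limma (17.3% of all tested genes, with a positive change as here). Cox17, a copper chaperone, had the smallest p, at 37.7, 40.6 and 43.3 FPKM in mock and 44.1, 47.8 and 47.8 FPKM in quinpirole (adjusted p = 0.070). Its groups did not overlap. Cox14 was the most abundant, at 97.4, 96.3 and 110.0 FPKM in mock and 107, 122 and 113 FPKM in quinpirole, with overlap (adjusted p = 0.13). Cox16 and Cox20 had the widest changes, 25.8% and 20.2% (adjusted p = 0.10 and 0.099), without overlap between the groups. Cox16 was at 16.4, 16.3 and 18.106 FPKM in mock and 20.9, 24.97 and 18.113 FPKM in quinpirole, and Cox20 at 23.3, 21.6 and 23.8 FPKM in mock and 27.3, 31.0 and 24.2 FPKM in quinpirole. In both, quinpirole 2 was the highest and quinpirole 3 lay just above mock 3. The enzymes of heme a synthesis, Cox10 and Cox15, were at 5.57 and 5.41 FPKM on average, and Cox10 was level between the groups (5.56 ± 0.38 and 5.59 ± 0.16 FPKM).

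ATP synthase held 7 of the 14 members that rose, which were 7 of its 17 genes (5.74% of all tested genes rose). In the catalytic head, Atp5c1 (chromosome 2, 10056016 to 10080510), the rotating shaft, was at 87.6, 90.4 and 89.2 FPKM in mock and 109, 112 and 101 FPKM in quinpirole (log2 fold change 0.27 ± 0.04, adjusted p = 0.025). The groups were clearly apart. Atp5b (chromosome 10, 128083273 to 128090391), the catalytic subunit and the most abundant of the complex, was at 493, 501 and 511 FPKM in mock and 581, 600 and 556 FPKM in quinpirole (adjusted p = 0.029). Its structural partner Atp5a1 was at 277, 284 and 290.5 FPKM in mock and 298, 307 and 294 FPKM in quinpirole, a difference of 5.44% that was without overlap and did not pass (adjusted p = 0.19). Atp5d and Atp5e, which complete the central stalk, differed by 11.2% and 13.9% with overlap (adjusted p = 0.12 and 0.11).

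The peripheral stalk keeps the catalytic head from turning, and 2 of its genes rose. Atp5f1 was at 89.9, 90.9 and 104 FPKM in mock and 109.7, 120 and 112 FPKM in quinpirole (adjusted p = 0.045), and Atp5j at 122, 106 and 125 FPKM in mock and 138, 146 and 139 FPKM in quinpirole (adjusted p = 0.047). Neither showed overlap. Atp5h and Atp5o, of the same stalk, differed by 15.3% and 9.84% (adjusted p = 0.060 and 0.066). Of the small membrane subunits, Atp5mpl (chromosome 12, 111961375 to 111966977), a proteolipid, had the largest log2 fold change of all members, 0.36 ± 0.07 (adjusted p = 0.032). It was at 92.9, 82.2 and 90.8 FPKM in mock and 112, 126 and 105 FPKM in quinpirole. Its mean FPKM rose by 28.7%, slightly less than that of Cycs (29.1%). Atp5l, known for holding dimers of the enzyme together, rose by 19.95% (adjusted p = 0.042), whereas its partner in that role, Atp5k, differed by 8.40% (adjusted p = 0.20). Atp5j2 differed by 12.4% (adjusted p = 0.061), and Atp5s, the least abundant of the complex at 2.38 to 4.14 FPKM, overlapped between the groups.

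The proton-driven ring is made of 1 protein encoded by 3 genes. Atp5g3 rose, from 231, 219 and 245 FPKM to 270, 289 and 272 FPKM (log2 fold change 0.26 ± 0.05, adjusted p = 0.029). Atp5g2 was at 197 ± 9.85 and 224 ± 11.2 FPKM (adjusted p = 0.064), and Atp5g1 at 91.8 ± 12.7 and 98.1 ± 1.93 FPKM (adjusted p = 0.46). Atp5g3 supplied 45.3%, 44.3% and 44.0% of the summed ring FPKM in mock and 46.4%, 46.3% and 46.1% in quinpirole. The shares did not overlap, and a two-sided exact permutation test gave p = 0.1, the smallest that 3 against 3 libraries allow (0.7 after adjustment over 7 shares). The shares of Atp5g1 and Atp5g2 overlapped between the groups.

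**Figure D2:**
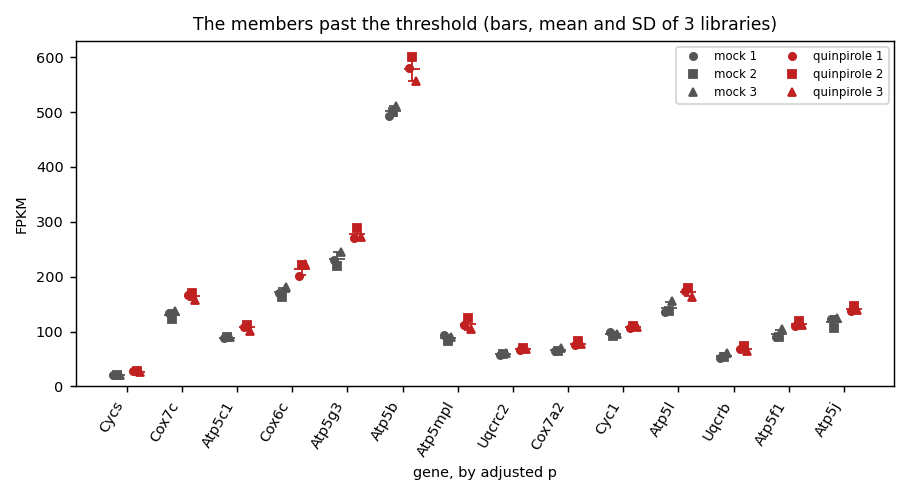
FPKM in each library (vertical axis, from 0) of the 14 members that rose, ordered by adjusted p (horizontal axis), with mean and SD of 3 libraries per group. In every gene shown the 3 quinpirole points lie above the 3 mock points, and the gap is widest relative to the spread for Cycs.

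Compared with each other, the complexes fell in an order that other processing changed in part. After quantile normalization the median of complex II (0.058) lay above that of complex III (0.027). On the values as deposited, the median log2 fold change was 0.11 in complex II, 0.14 in complex III, 0.17 in the subunits and in the assembly factors of complex IV, 0.20 in complex V and 0.35 in Cycs. Without quinpirole 2 the median of complex III was 0.092. Summed FPKM differed between the groups by 6.45% for complex II, 10.3% for complex III, 13.3% for complex IV subunits, 14.0% for the assembly factors and 14.5% for complex V. In the same order, 0 of 4, 3 of 9, 3 of 14, 0 of 9 and 7 of 17 genes rose, beside 5.74% of all tested genes. To set the complexes against each other within a library, the median deviation of 1 complex was subtracted from that of the other. This largely removes a factor shared by all genes of a library, but not a scaling that varies with level or length. Complex II minus complex V was 0.05, 0.08 and 0.01 in mock and −0.07, −0.06 and −0.04 in quinpirole. Complex III minus complex V was 0.06, 0.04 and −0.005 in mock and −0.05, −0.03 and −0.03 in quinpirole. Both differences were without overlap between the groups, and relative to complexes II and III, complex V was higher in each quinpirole library than in any mock library. The assembly factors minus complex V (0.003 to 0.03 in mock, −0.07 to −0.04 in quinpirole) and complex II minus complex IV subunits (0.02 to 0.06 and −0.07 to −0.03) were also apart.

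Other neighbours in the order overlapped. Complex II minus III ranged from −0.01 to 0.04 in mock and from −0.03 to −0.008 in quinpirole, complex III minus IV subunits from −0.01 to 0.07 and from −0.04 to 0.0009, and complex IV subunits minus V from −0.01 to 0.05 and from −0.05 to 0.01. Cycs set against each complex was apart in each of the 5 comparisons, but it is 1 gene. No p-value is given for these differences, which rest on medians over a few genes, 4 of them in complex II.

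**Figure D3:**
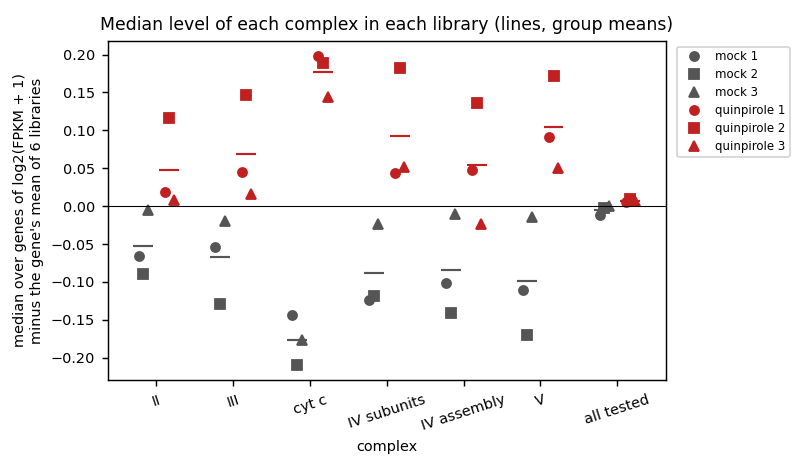
Median over the genes of each complex of log2(FPKM + 1), as a difference from each gene's mean of 6 libraries (vertical axis), for each library and complex (horizontal axis), with lines for the group means. Quinpirole 2 is highest in complexes II, III, IV and V, quinpirole 3 of the assembly factors lies below mock 3, and the medians of all tested genes stay between −0.01 and 0.009.

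The libraries within a group did not move as 1. Quinpirole 2 was the highest of the 6 libraries in 43 of the 54 members (79.6%; 23.9% of all tested genes), mock 2 the lowest in 34, and mock 3 was the highest mock library in 41. The median coefficient of variation over the 3 libraries was 5.05% in mock and 4.95% in quinpirole, beside a median difference between the groups of 12.5%. Without quinpirole 2, 51 of 54 members stayed above 0 with a median log2 fold change of 0.13, and 0 passed. Likewise 0 passed without mock 1, mock 2 or quinpirole 1, and in each of these 4 fits no more than 9 genes of the whole table were higher. Without quinpirole 3, 4 members passed (0.685% of tested genes were higher), and without mock 3, 18 passed (5.46%).

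**Figure D4:**
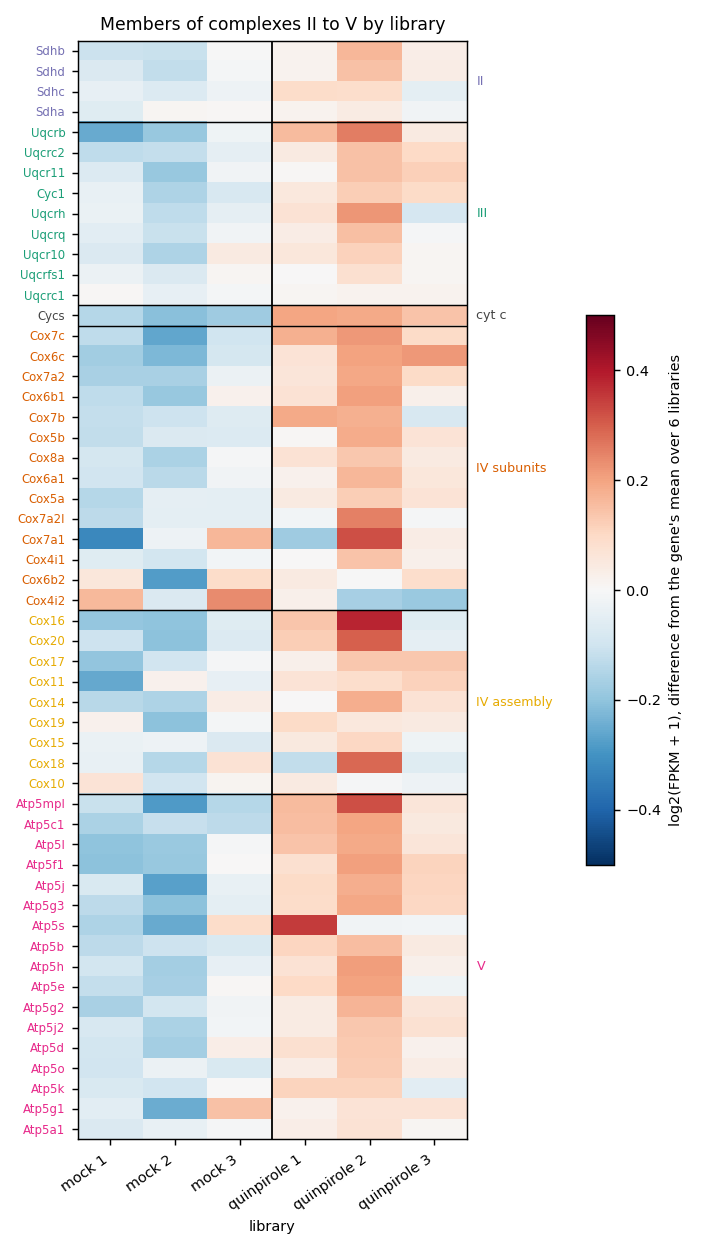
Each row is 1 of the 54 tested members, grouped by complex and ordered by fold change, and each column 1 library; colour gives log2(FPKM + 1) as a difference from the gene's mean over the 6 libraries. Blue prevails in mock 1 and mock 2 and red in quinpirole 2, while mock 3 and quinpirole 3 are paler.

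Part of the difference moved with gene length. Over all tested genes with a length, the change fell with exonic length (Spearman rho −0.47 across 12223 genes, which are not independent replicates), and the quintile with the shortest exons, 102 to 2514 bases, had a median log2 fold change of 0.12 with 12.8% higher. That quintile held 35 of the 54 members, of which 7 rose, with a median of 0.17. Among the members themselves the change hardly followed exonic length (rho 0.01, n = 54), but it fell weakly with transcript length (rho −0.20). It was also lower in GC-rich transcripts (rho −0.37). When each library's trend with exonic length was subtracted, 3 members rose, Cycs, Cox6c and Atp5b (adjusted p = 0.030, 0.038 and 0.038), beside 2.09% of all tested genes. The members above 0 were then 47 of 54, and the medians were 0.02 in complex II, 0.02 in complex III, 0.05 in complex IV subunits, 0.08 in the assembly factors, 0.12 in complex V and 0.31 in Cycs. Quantile normalization also left 3, Cycs, Cox7c and Atp5c1 (2.34% of tested genes). With the trend on transcript length subtracted instead, 41 of 54 members lay above 0, with a median of 0.04. Of these only Cycs rose, and 104 genes of the whole table were higher. Complex V stayed 0.09 above complexes II and III with the exonic length trend removed. Its median lay above those of complexes II, III and IV subunits under each of the scalings plotted, but below the assembly factors after quantile normalization.

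**Figure D5:**
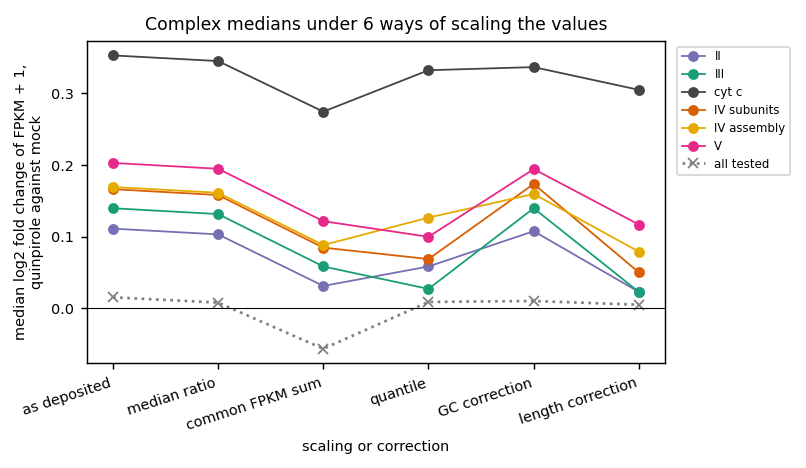
Median log2 fold change, quinpirole against mock (vertical axis), of each complex and of all tested genes under 6 ways of scaling or correcting the values (horizontal axis). Cycs stays between 0.27 and 0.35, complex V above complexes II and III throughout, and complexes II and III lie at 0.02 after the length correction.

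Reads of several members can be shared with other genes. In 12 of the 56 members more than 25% of the 50-base words of the longest transcript also occur in other genes, among them 5 that rose. Atp5l shares 84.8% of its words with other genes, most often with the processed pseudogene Gm10221. The totals were 43.4% in Uqcrb (most often Gm16089), 38.7% in Atp5f1 (Gm12231), 28.5% in Cycs (Gm10053) and 27.9% in Cox7c (Gm10012). Their values are uncertain where the counting could split such reads. Cox16 shares 88.7% of its words, most often with the overlapping gene Gm20498. Cox20 and Cox11 share 68.2% and 50.5% of their words, most often with Hnrnpu and Tom1l1. Exons of Hnrnpu and Tom1l1 on the other strand overlap 91.05% and 48.35% of their exonic bases. Reads of such pairs cannot be told apart, since the use of strand in the counting is not stated. Exons of 19 members overlap another gene. Among the 27 tested members without overlap and with under 5% shared words, 6 rose (5.74% of all tested genes did). Their median was 0.15.

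Genes that work with the members showed similar values. Of the nuclear subunits of complex I, 8 of 37 tested rose and 0 fell, beside 5.74% and 5.18% of all tested genes. Their median log2 fold change was 0.17. Examples are Ndufa4, which is now counted with complex IV (172 ± 12.4 to 220 ± 9.07 FPKM, adjusted p = 0.025), and Ndufb6 (59.7 ± 5.29 to 76.7 ± 1.97 FPKM, adjusted p = 0.025). Of the 6 mitochondrially encoded subunits of complexes III to V, mt-Cytb, mt-Co1 and mt-Atp6 rose (log2 fold change 0.29, 0.25 and 0.38), beside 5.74% of all tested genes. The median of the 6 was 0.27. Of 30 genes for assembly and regulation of complexes II to V, 5 rose and 0 fell (5.74% and 5.18% of all tested genes). Their median was 0.15, and Ndufa4 is counted both here and with complex I. These 5 were Ndufa4, Sdhaf4, Uqcc2, Higd2a and Atpif1, the inhibitor of ATP synthase (135 ± 8.27 to 159 ± 3.53 FPKM, adjusted p = 0.032).

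The regulators of mitochondrial biogenesis had a median near that of all genes. Of 13 tested, 1 rose and 0 fell (5.74% and 5.18% of all tested genes), and 3 had an unadjusted p under 0.05 (31.3%). The median log2 fold change was −0.04, and single genes ranged from −0.20 to 0.48. Their median exonic length was 5687 bases, within a length quintile whose median log2 fold change was −0.03. Tfb1m, which methylates mitochondrial ribosomal RNA, rose from 2.12, 2.72 and 2.91 to 3.67, 3.99 and 4.25 FPKM (adjusted p = 0.032). The coactivator Ppargc1a was at 4.81, 4.88 and 4.28 FPKM in mock and 4.13, 3.68 and 3.93 FPKM in quinpirole, lower without overlap and not past the threshold (adjusted p = 0.10). Nrf1, Gabpa, Yy1 and Esrra, whose motifs were searched above, had log2 fold changes of 0.05, −0.04, 0.002 and −0.004.

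Markers of other cell types also moved with the groups. The summed level of 6 neuronal markers ranged from 70.9 to 76.2 FPKM in mock and from 82.9 to 89.4 FPKM in quinpirole, with Stmn2 higher (adjusted p = 0.032) and 4 of the 6, including Snap25 and Rbfox3, below 1 FPKM. The sum of the 4 mural markers, nearly all of it Acta2 (adjusted p = 0.17), ranged from 2546 to 2716 and from 2732 to 2902 FPKM, whereas Pdgfrb fell and Vtn was lower without overlap at under 1 FPKM. The 6 endothelial markers ranged from 7.88 to 8.26 and from 6.48 to 7.34 FPKM (0 past the threshold, Pecam1 near 0). The 2 markers of oligodendrocyte precursors ranged from 2.07 to 2.67 and from 1.70 to 1.93 FPKM. Of 10 astrocyte markers, 3 fell, Slc1a2, Atp1b2 and Slc4a4, beside 5.18% of all tested genes. The sum of the 10 overlapped between the groups (1482 to 1640.0 and 1470 to 1500.1 FPKM), as did those of 6 oligodendrocyte and 4 ependymal markers. The part of these cell types in the levels of the members was not tested.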

How the data were processed

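Polyadenylated RNA of isolated astrocytes was sequenced from 3 mock and 3 quinpirole libraries. The authors trimmed paired-end reads, aligned them with TopHat2 to GRCm38 (the submitters' processing notes) and deposited a table of FPKM for each library. The program and annotation behind these FPKM values are not given in the sources used here. The tables list no counts, and the depth was read from the spacing of low FPKM values in 1254 genes with 1 transcript, of which 60.7% to 68.6% per library lay within 0.1 of whole fragments. No count test was therefore made.

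Identifiers were matched to symbols (17090 of 17193) and to positions and lengths in GENCODE M21 (GRCm38), which need not be the annotation used upstream. After a filter on mean FPKM (minimum 1), log2(FPKM + 1) was tested in R 4.3.3 by limma 3.58.1, a linear model per gene with eBayes moderation and a trend on the mean. Tests were two-sided, with Benjamini-Hochberg adjustment over all tested genes and a threshold of 0.05. A fold change on this scale understates the change of low genes. Length and GC trends were removed per library by loess (span 0.3), which would also remove a true change tied to length. Shared sequence was counted in words of 50 bases.

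The genes named per complex are those with the smallest p, the lowest fold change and the highest FPKM, members with a negative change whose groups do not overlap, and the isoform families. The others were named after their values were seen. The result of the microglial marker list is not reported here. The members and lists were chosen with earlier results of these data known. Alternatives were 0.1 as pseudocount, a mean FPKM filter of 5 or none, other scalings, other eBayes settings, a replicate block, length and GC corrections, a smallest fold of 1.5 and leaving out libraries one by one. The corrections for length with GC and for transcript length, and the scaling to a common FPKM sum, were added after seeing the data. Tables and figures were made in Python 3.11.15 with pandas 2.3.3, scipy 1.17.1 and matplotlib 3.10.9.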

Additional observations from a re-analysis of the deposited data

How the results depend on the processing

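The counts depended strongly on the processing. Directions changed less often, but the filters, eBayes settings and replicate block leave each fold change as it is and could not change them. With the trend on transcript length removed, 41 of 54 members lay above 0, beside 53 in the main fit. The number of members that rose (14) was 4 without a filter, 4 with eBayes without trend, 3 after quantile normalization, 7 with a common FPKM sum, 3 after the exonic length correction, 3 after the length and GC corrections, 1 after the transcript length correction (Cycs) and 0 with a minimum change of 1.5 times. It ranged from 0 to 18 when single libraries were omitted, where the omission of mock 1, mock 2, quinpirole 1 or quinpirole 2 left 0 and a group of 2 relies on the spread of both groups. The number that fell was 0 under every alternative. In the whole table, 704 higher and 635 lower genes became 329 and 304 without a filter, 293 and 421 with eBayes without trend, 256 and 253 after the length correction, 195 and 189 after the length and GC corrections, 104 and 122 after the transcript length correction, 220 and 1236 with a common FPKM sum and 287 and 501 after quantile normalization. Omitting single libraries gave 1 to 669 higher and 2 to 546 lower genes.

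With the replicate number as a block, 0 members rose, and 1 gene was higher and 1 lower in the whole table, or 0 and 0 with the block and the length correction. The numbers mark no shared animal, and libraries with the same number did not deviate together (mean correlation of deviations −0.05, beside 0.02 for different numbers). Under the block 0 complex I subunits, 0 mitochondrially encoded subunits, 0 assembly and regulation genes and 0 biogenesis regulators rose.

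For the 8 complex I subunits that rose, the count was 4 without a filter, 4 after quantile normalization, 4 when eBayes had no trend, 4 with a common sum, 3 after the length correction, 2 with length and GC, 1 with transcript length and 0 to 13 without single libraries. For the 3 mitochondrially encoded subunits it was 0 without a filter, 1 after quantile normalization, 1 after the length correction, 0 with length and GC and 0 to 2 without single libraries. For the 5 assembly and regulation genes it was 1 without a filter, after quantile normalization, when eBayes had no trend, and after the length and the transcript length corrections, 2 with length and GC, 3 with a common sum and 0 to 6 without single libraries. For the regulators it was 0 without a filter and after the 3 corrections for length, 2 with a common sum (1 of them lower) and 0 to 1 without single libraries.

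The medians of complexes II, III, IV subunits and V were 0.058, 0.027, 0.069 and 0.10 after quantile normalization. With a common sum they were 0.031, 0.058, 0.085 and 0.12, with 0.088 in the assembly factors and 0.27 in Cycs. After the length correction, with or without the replicate block, they were 0.023, 0.023, 0.050 and 0.12, with 0.079 and 0.31. With length and GC they were 0.017, 0.054, 0.059 and 0.12, with 0.070 and 0.26, and with transcript length 0.020, 0.024, 0.023 and 0.11, with 0.079 in the assembly factors. The cause of these shifts was not tested.

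Of 1078 values of single members under alternatives, 848 kept direction and side of the threshold, 171 lost the threshold, 11 gained it and 48 changed sign, in 13 members, none of which had risen. These totals include the filters, eBayes settings and replicate block, under which no sign could change. After quantile normalization the log2 fold change was −0.064 for Sdha, −0.064 for Uqcrc1, −0.0055 for Uqcrfs1 and −0.038 for Atp5a1. With a common sum it was −0.054 for Sdha, −0.052 for Uqcrc1, −0.019 for Uqcrfs1, −0.0030 for Cox18, −0.061 for Cox10 and −0.0054 for Atp5a1. After the length correction, with or without the replicate block, it was −0.023 for Uqcr10, −0.056 for Uqcrfs1, −0.050 for Cox10, −0.043 for Cox6b2, −0.023 for Cox7a1 and −0.028 for Atp5k, and after the GC correction −0.0016 for Cox10. With length and GC it was −0.0016 for Sdha, −0.0029 for Uqcr10, −0.065 for Uqcrfs1, −0.032 for Cox10, −0.022 for Cox6b2, −0.0039 for Cox7a1 and −0.013 for Atp5k. With transcript length it was −0.0074 for Sdha, −0.042 for Uqcr10, −0.015 for Uqcrh, −0.059 for Uqcrc1, −0.047 for Uqcrfs1, −0.040 for Cox18, −0.026 for Cox10, −0.034 for Cox4i1, −0.066 for Cox6b2, −0.037 for Cox7a1, −0.0090 for Atp5o and −0.052 for Atp5k. Omitting single libraries gave −0.056 (quinpirole 2) to 0.15 for Cox18, −0.038 (mock 2) to 0.045 for Cox10, with −0.012 without quinpirole 1, −0.032 (mock 2) to 0.15 for Cox6b2, and −0.010 (mock 1 or quinpirole 2) to 0.24 for Cox7a1. With 3 libraries a group and no counts, changes of a few percent could not be resolved.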
